A study of Mus musculus with 6 samples.

Results

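The interferon-stimulated genes examined here were 9 genes picked by symbol for their part in the interferon response: the transcription factors Stat2, Irf9, Irf7 and Irf1, and the effectors Isg15, Ifit1, Ifit3, Oasl2 and Bst2. All 9 were found among the 24422 gene symbols counted in 6 kidney RNA libraries from C57BL/6 mice at postnatal day 13, all kept on an iron-sufficient diet (220 ppm iron). The 3 Control kidneys were labelled wild type. The 3 TfR1 knockout kidneys carried floxed alleles of Tfrc, the gene of transferrin receptor 1 (TfR1), with a Six2-driven Cre recombinase (label Tfr1f/f;SixCre), and each group is stated to hold biological replicates. Six2Cre acts in the progenitors of the nephron, so the ureteric, vascular, stromal and blood-derived cells of a knockout kidney keep the gene, and the study describes tubule cells that escaped the deletion at this age. Every library was from a whole kidney, in which fewer cells of a type and less RNA per cell cannot be told apart.

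Interferons are secreted proteins that act through receptors and Janus kinases. Type I and type III interferons activate a complex that contains Stat2 and Irf9 and binds the interferon-stimulated response element (ISRE) before its target genes, and type II interferon acts through the gamma-activated sequence (GAS). Targets include antiviral proteins, sensors of viral nucleic acid and inhibitors that end the response. In the kidney, tubule cells, endothelium and resident macrophages can all carry it out.

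Library sizes ran from 16591156 to 22898008 counts. Counts were divided by DESeq2's median-ratio size factors to give normalized counts, and a gene passed the test at a Benjamini-Hochberg adjusted p under 0.05 in a DESeq2 Wald test over 16509 genes. Tfrc itself was no lower in the knockout (5229 ± 1434 against 5639.8 ± 1482 normalized counts, mean ± SD, n = 3 each; log2 fold change 0.11, SE 0.29, adjusted p = 0.853), so it does not check the group labels. The study floxed only part of the gene, and the counts are per gene, so loss of the floxed exons was not measured. The kidney label was checked with nephron genes: Cdh16, a tubule cadherin, had at least 21026 normalized counts in every library. One library stood apart for the interferon-stimulated genes. TfR1 knockout replicate 1 was the highest of the 6 libraries for 9 of 9 members, against 15.6% of all genes tested, and the members are given with and without it.

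The sequences before the transcription start sites of 5 members are shown because they hold, or lack, the element through which these genes are known to be induced. The search covered the RefSeq promoter windows of the GRCm38.p6 build, from 250 bases before to 50 after each start site, and all 9 members were matched. The letters searched were GAAANNGAAA, the ISRE core (TTTCNNTTTC when read from the other strand), and TTCNNNGAA, the GAS, which reads the same on both strands. The ISRE core was present in 1131 of 32851 windows (3.44%), which belonged to 1079 of 27025 genes (3.99%). It was in the windows of 5 of 9 members: Stat2, Isg15, Ifit1, Ifit3 and Bst2. The GAS was present in 2726 windows (8.30%) of 2582 genes (9.55%), and among the members in those of Irf1 and Bst2. The 250 bases before the start site follow, 5′ to 3′ on the strand of the gene, with ISRE cores in capitals, at Isg15 chr4:156200819-156201068 on the minus strand, Ifit1 chr19:34640639-34640888 on the plus strand, Ifit3 chr19:34583279-34583528 on the plus strand, Bst2 chr8:71537473-71537722 on the minus strand and Irf7 chr7:141266425-141266674 on the minus strand.
Isg15: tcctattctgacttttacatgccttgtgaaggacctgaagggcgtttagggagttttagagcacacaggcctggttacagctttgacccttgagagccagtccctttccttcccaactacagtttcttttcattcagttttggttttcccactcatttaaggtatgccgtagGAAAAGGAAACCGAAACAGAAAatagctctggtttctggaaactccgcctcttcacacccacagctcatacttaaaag
Ifit1: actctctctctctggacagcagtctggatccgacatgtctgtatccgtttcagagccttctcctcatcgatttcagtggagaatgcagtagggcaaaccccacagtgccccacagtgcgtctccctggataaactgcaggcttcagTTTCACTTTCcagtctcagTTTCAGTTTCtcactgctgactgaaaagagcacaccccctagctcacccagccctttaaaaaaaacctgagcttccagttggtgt
Ifit3: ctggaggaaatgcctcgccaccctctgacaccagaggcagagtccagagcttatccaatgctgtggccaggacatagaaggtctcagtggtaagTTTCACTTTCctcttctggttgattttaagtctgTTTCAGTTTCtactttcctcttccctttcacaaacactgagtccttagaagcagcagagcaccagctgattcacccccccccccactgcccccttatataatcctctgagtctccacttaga
Bst2: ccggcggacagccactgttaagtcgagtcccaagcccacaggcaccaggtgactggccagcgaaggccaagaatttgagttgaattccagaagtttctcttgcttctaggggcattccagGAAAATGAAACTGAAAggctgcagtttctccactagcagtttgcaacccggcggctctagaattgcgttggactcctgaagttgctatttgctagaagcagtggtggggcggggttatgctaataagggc
Irf7: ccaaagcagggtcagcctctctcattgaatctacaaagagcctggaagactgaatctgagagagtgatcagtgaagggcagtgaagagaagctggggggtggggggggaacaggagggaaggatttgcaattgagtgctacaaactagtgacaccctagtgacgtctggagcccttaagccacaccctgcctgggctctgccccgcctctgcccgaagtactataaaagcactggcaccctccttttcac

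Isg15 carried 3 overlapping cores in a run, which began 78, 72 and 66 bases before the start site. Ifit1 carried a pair, TTTCACTTTC and TTTCAGTTTC, which began 104 and 85 bases before the start site, and Ifit3 carried the same pair of letters farther out, 156 and 122 bases before it. Bst2 had 2 overlapping cores that began at 130 and 124 bases, and its GAS began at 136 bases and overlapped the first of them. Stat2 had 1 core, TTTCAGTTTC, 222 bases before the start site. The windows of Irf7, Irf9, Oasl2 and Irf1 held no ISRE core, which says only that these letters were not in them. A match is a description of the letters and not a measured binding site.

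Compared with Control, the mean level of all 9 members was higher in TfR1 knockout kidneys, but 2 of 9 passed the test, Irf7 and Irf9, and none was lower past it. Of all genes tested, 7.74% were higher and 7.18% lower. The median log2 fold change of the members was 1.42, against 0.0071 for all genes tested, and 6 members had an unadjusted p under 0.05. The share of all genes at an unadjusted p was not taken for any fit, so unadjusted counts have no background to be read against. With edgeR's quasi-likelihood test 0 of 9 passed (5 at an unadjusted p under 0.05), where 3.22% of all genes were higher, and with limma-voom 0 of 9 passed (1 unadjusted), where 3.17% were. Every knockout library lay above every Control library for 3 members, Irf7, Irf9 and Oasl2, an order seen in 16.9% of all genes. With replicate 1 the highest library for every member, this order rested on replicates 2 and 3. These lay above every Control library for the same 3 members and in 25.5% of all genes, so the count is near that share. TfR1 knockout replicate 1 held between 42.3% (Irf1) and 89.2% (Ifit1) of the summed normalized counts of the 3 knockout libraries and was at least 2 times every other library for 7 members, against 1.3% of all genes.

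**Figure D1:**
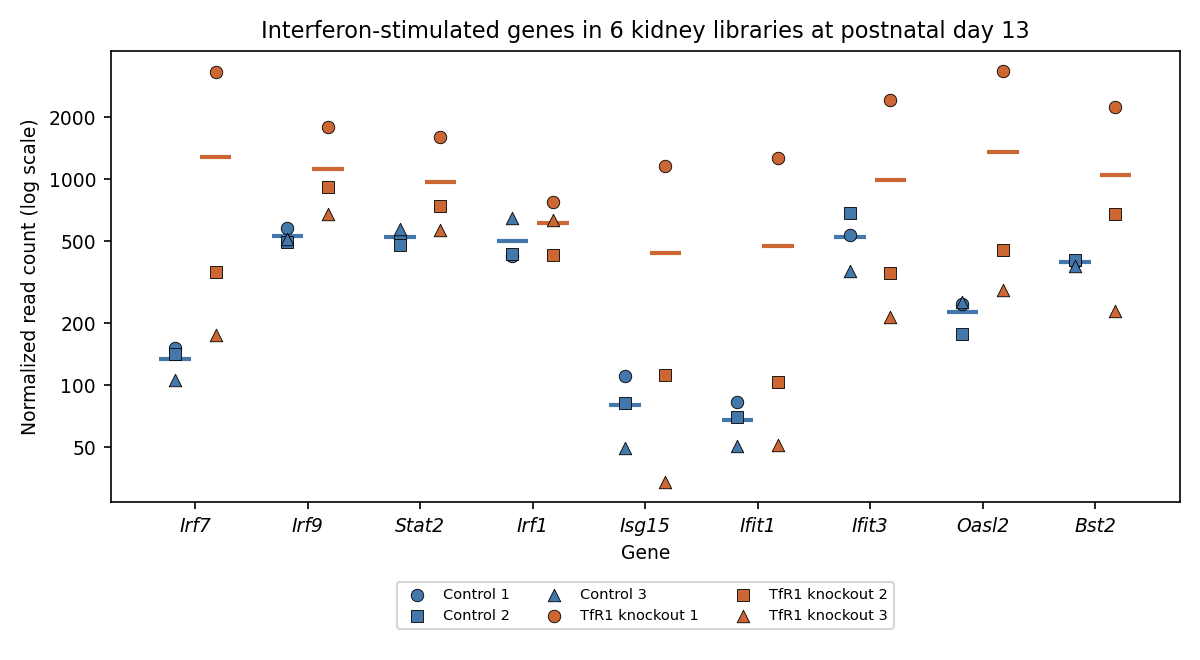
Normalized read counts (y axis, log scale) of the 9 interferon-stimulated genes (x axis) in each Control (blue) and TfR1 knockout (orange) library, with the shape of the point giving the replicate and the short line the group mean. TfR1 knockout replicate 1 (orange circle) was the highest library for all 9 genes, and the 3 knockout libraries were all above the Control libraries for Irf7, Irf9 and Oasl2. For Ifit3 the other 2 knockout libraries were below every Control library.

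Values per library are given in the order of replicates 1, 2 and 3. Among the signalling members, Irf9, the DNA-binding subunit of that complex, had 583, 497 and 515 normalized counts in the Control libraries and 1786, 913 and 682 in the knockout libraries. All 3 knockout libraries were above all Control libraries, and replicate 1 was the highest. The mean rose from 532 ± 45.3 to 1127 ± 582 (log2 fold change 1.08, SE 0.36, adjusted p = 0.0209). The call was lost with edgeR (adjusted p = 0.106) and without TfR1 knockout replicate 1 (log2 fold change 0.58, adjusted p = 0.0566) or any 1 of the Control libraries (adjusted p from 0.0613 to 0.119). Irf9 overlaps Rnf31 on the same strand over 123 bases of the annotation (chr14:56222408-56228867, plus strand, mm9). Its partner Stat2 (chr10:127707629-127729905, plus strand) had 521, 481 and 576 normalized counts in the Control libraries and 1598, 741 and 567 in the knockout libraries. Replicate 1 stood far above the rest, replicate 2 lay above the Control range and replicate 3 within it. The difference did not pass the test (log2 fold change 0.88, SE 0.38, adjusted p = 0.0997; log2 fold change 0.31 and adjusted p = 0.363 without replicate 1).

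Irf7, a factor that is itself induced by interferon and amplifies type I interferon production, had the largest fold change of the members. It had 152, 143 and 107 normalized counts in the Control libraries and 3313, 357 and 176 in the knockout libraries (chr7:148448605-148452380, minus strand). The knockout libraries were all above the Control libraries, but replicate 1 was 9.28 times the next highest library and replicate 3 was just above the highest Control. The mean rose from 134 ± 23.9 to 1282 ± 1762 (log2 fold change 3.26, SE 1.15, adjusted p = 0.0356), an SD above the mean. The adjusted p was 0.108 with edgeR. Without TfR1 knockout replicate 1 the log2 fold change was 0.99 (DESeq2 adjusted p = 0.0543), and without any 1 of the Control libraries the adjusted p was between 0.136 and 0.158. Irf1, a factor that acts downstream of type II interferon (chr11:53583516-53591876, plus strand), had 425, 434 and 652 normalized counts in the Control libraries and 781, 429 and 636 in the knockout libraries. Its groups overlapped, and its difference was the smallest of the members (log2 fold change 0.29, SE 0.30, adjusted p = 0.572; log2 fold change 0.082 and adjusted p = 0.893 without replicate 1). Irf7 and Irf1 overlap Phrf1 (45 bases) and Gm17334 (907 bases) on the opposite strand, and the strand setting of the counting is not given in the sources used here.

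Among the effectors, Isg15, a ubiquitin-like protein that is joined to other proteins during the response, had 110.5, 81.8 and 49.5 normalized counts in the Control libraries and 1167, 113 and 34.1 in the knockout libraries (chr4:155573533-155574927, minus strand). Replicate 1 was far above all other libraries, replicate 2 was close to the highest Control, and replicate 3 was the lowest of the 6. The difference did not pass the test (log2 fold change 2.44, SE 1.30, adjusted p = 0.207). Without TfR1 knockout replicate 1 its sign changed (log2 fold change -0.15, DESeq2 adjusted p = 0.898). The run of 3 ISRE cores shown above lies before this gene.

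Ifit1, which binds viral RNA that lacks the host's cap methylation (chr19:34715361-34724499, plus strand), had 83.3, 70.0 and 50.6 normalized counts in the Control libraries and 1274, 104 and 51.1 in the knockout libraries. Replicate 1 was 12.3 times the next highest library, the widest such gap of the members, and replicate 3 was at the bottom of the Control range. The difference did not pass the test (log2 fold change 2.81, SE 1.26, adjusted p = 0.117; log2 fold change 0.18 and adjusted p = 0.839 without replicate 1). Its family member Ifit3 (chr19:34658021-34663221, plus strand), with the same pair of ISRE cores, had 539, 684 and 358 normalized counts in the Control libraries and 2418, 352 and 214 in the knockout libraries. Here both remaining knockout libraries were below every Control library, the only such member, against 24.9% of all genes. The log2 fold change was 0.92 (SE 1.03, DESeq2 adjusted p = 0.606) with all libraries and -0.90 (adjusted p = 0.0648) without replicate 1. Ifit3 has a near-identical copy, Ifit3b, and how reads fell between them is uncertain.

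Oasl2, of the oligoadenylate synthetase family that senses double-stranded RNA (chr5:115346943-115362243, plus strand), had 247, 178 and 254 normalized counts in the Control libraries and 3348, 455 and 291 in the knockout libraries. The knockout libraries were all above the Control libraries, replicate 3 by a small margin. The difference did not pass the test (log2 fold change 2.59, SE 1.03, adjusted p = 0.0684; log2 fold change 0.72 and adjusted p = 0.095 without replicate 1). Bst2, or tetherin, which holds budding virus particles at the cell surface (chr8:74058163-74061336, minus strand), had 399, 406 and 379 normalized counts in the Control libraries and 2256, 676 and 229.9 in the knockout libraries. The Control libraries agreed within 1.07-fold while the knockout libraries spread on both sides of them. Bst2 did not pass (log2 fold change 1.42, SE 0.62, adjusted p = 0.107; log2 fold change 0.19 and adjusted p = 0.803 without replicate 1).

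The knockout libraries were more spread than the Control libraries for these genes. The highest Control library was between 1.07 and 2.23 times the lowest over the 9 members, and the highest knockout library between 1.82 times (Irf1) and 34.3 times (Isg15) the lowest. Without TfR1 knockout replicate 1, 0 of 9 members passed the DESeq2 test, while 9.56% of all genes were then higher. Of the members, 7 of 9 had a positive log2 fold change, and the median was 0.19 (-0.0062 over all genes). In that fit 4 members had an unadjusted p under 0.05: Irf7, Irf9 and Oasl2 were higher and Ifit3 was lower. The share of all genes at an unadjusted p under 0.05 was not taken, so the unadjusted counts have no background here. Without TfR1 knockout replicate 3, the lowest knockout library for 8 members, 7 of 9 passed, with 5.33% of all genes higher. Without replicate 2, 2 of 9 passed, with 5.5% of all genes higher. With Control replicate 1, 2 or 3 left out 0 of 9 passed (3, 2 and 4 at an unadjusted p under 0.05), with 4.15%, 4.29% and 7.53% of all genes higher.

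**Figure D2:**
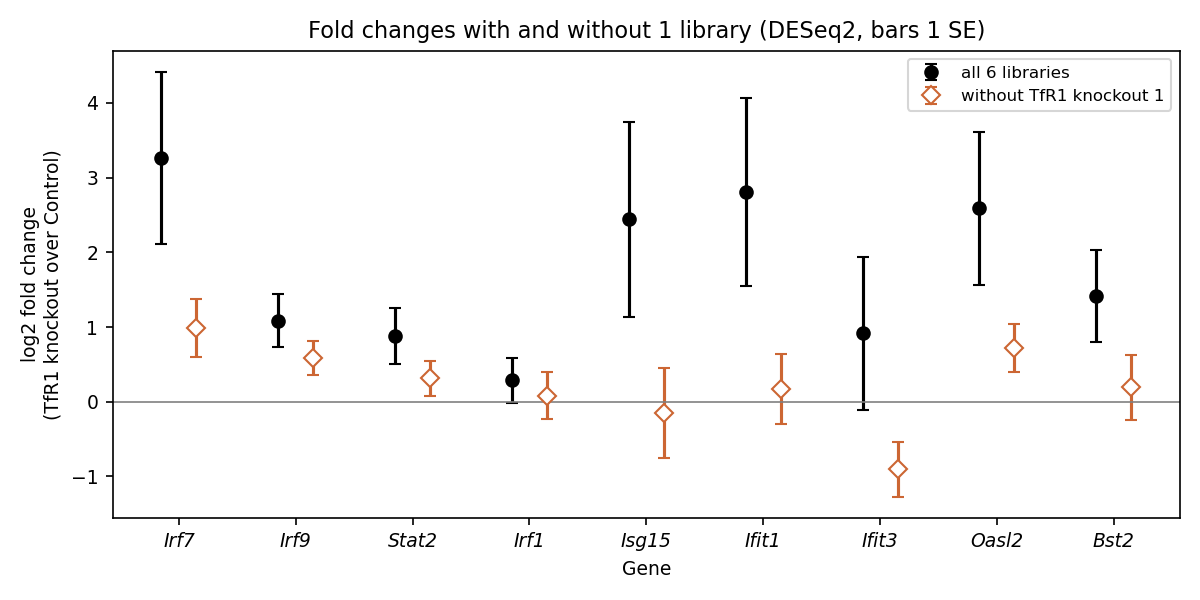
DESeq2 log2 fold changes (y axis, TfR1 knockout over Control, bars 1 SE) of the 9 members (x axis) with all 6 libraries (black circles) and without TfR1 knockout replicate 1 (open orange diamonds). All 9 were above 0 with every library, and without replicate 1 the values of Isg15 and Ifit3 were below 0 (-0.15 and -0.90).

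Per kilobase of exon, the levels in Control kidneys were highest for Bst2 (517 ± 18.6 normalized counts per kb, mean ± SD, n = 3), then Ifit3 (302 ± 93.3), Irf1 (127 ± 32.3), Stat2 (119 ± 10.8), Isg15 (107 ± 40.3), Irf9 (98.7 ± 8.42), Oasl2 (58.4 ± 10.8), Irf7 (44.2 ± 7.90) and Ifit1 (25.6 ± 6.19). The ranges of the Control libraries overlapped between Irf1 and Stat2, Stat2 and Isg15, Isg15 and Irf9, and Oasl2 and Irf7, so the order of these neighbours was not resolved. Bst2 and Ifit3 stood apart from their neighbours by this length. With the longest transcript as the length, the Control mean of Irf1 was 236 per kb, inside the Control range of Ifit3 (205 to 392), so Ifit3 and Irf1 were then not separated. Members with ISRE cores shown above were found at both ends of this order, Bst2 at the top and Ifit1 at the bottom.

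The genes with the pattern most like the mean of the 9 members over the 6 libraries were Dhx58, Ifi47, Lgals3bp, Oas1b and Rtp4. Likeness was the root mean square difference of centred log2(normalized count + 1) values, which was 0.231 for Dhx58 and 0.326 for Rtp4, against a median of 1.10 over the 13144 genes whose mean was 50 normalized counts or more. All 5 were in the interferon lists described next. Those lists were chosen with earlier results of these data known, so their overlap with the 5 genes is a description and not independent evidence. Dhx58, an RNA helicase of the sensor family, had 66.8, 51.8 and 62.4 normalized counts in the Control libraries and 454, 130.5 and 53.9 in the knockout libraries. Lgals3bp, a secreted glycoprotein, had 1177, 1067 and 1326 normalized counts in the Control libraries and 7232, 2586 and 1308 in the knockout libraries. Both were highest in replicate 1, intermediate in replicate 2 and near the Control values in replicate 3.

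The rest of the pathway was described with lists of its genes by role. Of 21 interferon ligand genes, 15 had 0 counts in all 6 libraries, including Ifnb1 and Ifng, and 20 had at most 3 counts in any library. The exception, Ifnz, reached 5. No ligand gene had enough counts to be tested, so a difference in them was not detectable at this depth, where a count of 0 allows a share of up to 1.31e-05% to 1.81e-05% of a library (3 counts, counting error only).

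Receptors were expressed in every library. Of 6 receptor genes, 2 passed the test as higher and none as lower. Ifnlr1, the type III receptor chain, rose (121 ± 28.4 against 239 ± 60.5 normalized counts; log2 fold change 0.97, SE 0.30, adjusted p = 0.0125), as did Ifngr1, the type II receptor chain (1171 ± 232 against 2182 ± 739; log2 fold change 0.90, SE 0.29, adjusted p = 0.0204). Neither passed with edgeR (adjusted p = 0.0852 and 0.0894), and neither passed with 1 of Control replicates 1 and 2 or TfR1 knockout replicate 2 left out (Ifngr1 also not without TfR1 knockout replicate 3, adjusted p = 0.08). The type I receptor chains did not pass: Ifnar1 had a log2 fold change of 0.025 (adjusted p = 0.945) and Ifnar2 of -0.33 (adjusted p = 0.302). TfR1 knockout replicate 1 was the highest library for 0 of the 6 receptors, against 15.6% of all genes.

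Among 10 Janus kinases and STATs, 2 rose, Stat3 and Jak3, and none fell. Stat3, which acts downstream of interleukin-6 family cytokines, had 2079, 2271 and 2118 normalized counts in the Control libraries and 4798, 5281 and 4646 in the knockout libraries. All 3 knockout libraries were well above all Control libraries and close to each other, and the call also passed edgeR (log2 fold change 1.19, SE 0.14, adjusted p = 1.28e-15; edgeR adjusted p = 0.00501). Jak3, a kinase of cytokine receptors, rose in the same way (534 ± 15.5 against 1099.7 ± 34.2; log2 fold change 1.04, SE 0.14, adjusted p = 1.09e-11; edgeR adjusted p = 0.00581).

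Of 10 inhibitors of interferon signalling, 2 rose and none fell. Socs3, a feedback inhibitor and a known Stat3 target, had 91.5, 84.5 and 193 normalized counts in the Control libraries and 1969, 573 and 388 in the knockout libraries. It was high in all 3 knockout libraries and highest in replicate 1 (log2 fold change 2.99, SE 0.58, adjusted p = 9.64e-06; edgeR adjusted p = 0.0455; log2 fold change 1.97 without replicate 1). Ptpn1, a phosphatase that acts on Janus kinases, also rose (1227 ± 69.6 against 1815 ± 354; log2 fold change 0.56, SE 0.20, adjusted p = 0.0345), but not with edgeR (adjusted p = 0.084) and not without any 1 library other than TfR1 knockout replicate 1. Among other interferon regulatory factors, Irf3 (log2 fold change -0.018, adjusted p = 0.959) and Irf8 (0.16, adjusted p = 0.804) did not pass.

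Of 17 sensors of nucleic acid and their adaptors that were tested, 7 rose and none fell (median log2 fold change 0.62). With edgeR 1 of them passed, Ddx58, and without TfR1 knockout replicate 1 there were 2, Ddx58 and Myd88; without Control replicate 1 or 2 there were also 2. Ddx58, which encodes the RNA sensor RIG-I, had 735, 708 and 825 normalized counts in the Control libraries and 2004, 1787 and 1244 in the knockout libraries. All knockout libraries were above the Control libraries (log2 fold change 1.15, SE 0.23, adjusted p = 2.05e-05; edgeR adjusted p = 0.021). Ifih1, the RNA sensor MDA5, rose with DESeq2 (log2 fold change 1.20, SE 0.39, adjusted p = 0.021; 199, 126 and 167 normalized counts in the Control libraries and 608, 256 and 267 in the knockout libraries) but not with edgeR (adjusted p = 0.111; without replicate 1, log2 fold change 0.67 and adjusted p = 0.0936), and Myd88, an adaptor of Toll-like receptors, likewise (478 ± 31.2 against 659 ± 39.2; log2 fold change 0.46, SE 0.16, adjusted p = 0.0298; edgeR adjusted p = 0.0963). None of the 4 genes of ISG15 conjugation passed. Usp18, which removes Isg15 from proteins, had 68.4, 52.7 and 71.0 normalized counts in the Control libraries and 641, 101 and 26.5 in the knockout libraries, with replicate 1 highest and replicate 3 lowest, as for Isg15.

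Of 42 other targets of type I interferon tested, 14 rose and 1 fell (median log2 fold change 0.94). TfR1 knockout replicate 1 was the highest library for 36 of them, against 15.6% of all genes. With edgeR 1 rose, Tor3a. Without TfR1 knockout replicate 1, 6 rose and 2 fell with a median of 0.23, and 5 and 3 rose without Control replicates 1 and 2. Tor3a, an endoplasmic reticulum ATPase, was high in all 3 knockout libraries, with 294, 259 and 335 normalized counts in the Control libraries and 766, 733 and 583 in the knockout libraries (log2 fold change 1.23, SE 0.21, adjusted p = 2.40e-07; edgeR adjusted p = 0.0136). Oasl1, a paralog of Oasl2, had 23.9, 12.7 and 33.4 normalized counts in the Control libraries and 386, 71.6 and 61.5 in the knockout libraries (log2 fold change 2.89, SE 0.72, adjusted p = 0.00103; edgeR adjusted p = 0.0793; without replicate 1, log2 fold change 1.52 and adjusted p = 0.0318). Oasl1 was highest in replicate 1 but above the Control range in all knockout libraries. Mx1, a classical marker of type I interferon, had 2.47, 7.27 and 9.69 normalized counts in the Control libraries and 93.5, 10.2 and 4.73 in the knockout libraries and did not pass (log2 fold change 2.49, SE 1.09, adjusted p = 0.105). Ifi44l fell (log2 fold change -5.99, SE 1.49, adjusted p = 0.00114), with 73.4, 69.1 and 2.15 normalized counts in the Control libraries and 0, 2.56 and 0 in the knockout libraries; the high values were those of Control replicates 1 and 2, and the gene had no edgeR value because of its low counts. Rsad2, the antiviral enzyme viperin, did not pass (log2 fold change 0.55, adjusted p = 0.23).

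Of 26 type II interferon targets tested, 4 rose and none fell (median log2 fold change 0.64), 0 passed with edgeR, and 0 passed DESeq2 without TfR1 knockout replicate 1 (median -0.027). With Control replicate 1 or 2 left out, 1 passed. Cxcl10, a chemokine that attracts T cells, had 25.6, 18.2 and 28.0 normalized counts in the Control libraries and 191, 75.5 and 43.5 in the knockout libraries (log2 fold change 2.11, SE 0.58, adjusted p = 0.00397; edgeR adjusted p = 0.0743; without replicate 1, log2 fold change 1.31 and adjusted p = 0.0549). All 3 knockout libraries were above the Control libraries, replicate 1 by the most. Ifi47, a GTPase, and Tap1, the peptide transporter of antigen presentation, also rose (log2 fold change 1.69, SE 0.56, adjusted p = 0.0233, and log2 fold change 1.19, SE 0.43, adjusted p = 0.0396), though neither passed edgeR (adjusted p = 0.131 and 0.14) or DESeq2 without replicate 1 (log2 fold changes 0.67 and 0.52, adjusted p = 0.193 and 0.171). Of the 68 targets of both types, TfR1 knockout replicate 1 was the highest library for 58 (15.6% of all genes). It was at least 2 times every other library for 36 (1.3% of all genes). Over all interferon lists and the 9 members together, 51 of 130 genes tested (39.2%) were at least 2 times every other library in TfR1 knockout replicate 1. These 51 included 7 of the members and made up 23.7% of the 215 genes with that property. In the other 5 libraries the same property was met by 1 of these 130 genes in TfR1 knockout replicate 2 and by 0 in the rest. Over all genes the shares in those 5 libraries ran from 0.0363% to 1.96%, so counts this low are near the background.

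Markers of other cell types were read beside these genes. Macrophage markers rose in 15 of 20 cases and fell in none (median log2 fold change 1.49), and 8 rose with edgeR. Without TfR1 knockout replicate 1, 11 rose and 1 fell, and without Control replicate 1 or 2, 10 rose. The 20 markers summed to 3775, 3825 and 6545 normalized counts over the Control libraries and to 14014, 11309.9 and 11629 over the knockout libraries. All knockout libraries were high, and replicate 1 was only somewhat above the other two. Of the 20, 2 were at least 2 times every other library in replicate 1, against 1.3% of all genes. Ctss, a lysosomal protease of macrophages, for example, had 102, 105 and 209 normalized counts in the Control libraries and 836, 1085 and 542 in the knockout libraries (log2 fold change 2.57, SE 0.37, adjusted p = 7.53e-10). Adgre1, the macrophage surface marker F4/80, did not pass and had 110.5, 124 and 223 normalized counts in the Control libraries and 439, 118 and 379 in the knockout libraries. The part of macrophages in the interferon-stimulated genes was not tested.

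Siglech, which defines plasmacytoid dendritic cells, known producers of type I interferon, had between 1.28 and 9.69 normalized counts in every library, with replicate 1 inside the Control range. Of 5 markers of that cell type tested, Pacsin1 rose and Ly6d and Cox6a2 fell; Ly6d did not pass edgeR (adjusted p = 0.087) and its call was lost without Control replicate 1 (adjusted p = 0.129). In this list the summed normalized counts were 501, 192 and 195 in the Control libraries and 98.4 to 148 in TfR1 knockout libraries. The largest raw count of any of these markers was 514. Only Control replicate 1 can hold that count, so a single marker made up most of its sum. For T and NK cell markers (1 of 8 tested rose, Lck) the sums were 160.0 to 227 in Control and 219 to 254 in TfR1 knockout libraries. For B cell markers (1 of 5 fell, Ms4a1) they were 104 to 179.8 in Control and 57.6 to 102 in TfR1 knockout libraries, and for neutrophil markers (2 of 6 rose, S100a8 and S100a9) 113 to 408 in Control and 325 to 965 in TfR1 knockout libraries, where the lowest knockout value was that of replicate 1. Conventional dendritic cell markers (1 of 7 fell, Batf3) had sums of 367 to 662 in Control and 400.5 to 446 in TfR1 knockout libraries, and endothelial markers (1 of 10 rose, Flt1) of 26043 to 41197 in Control and 27283 to 36072 in TfR1 knockout libraries. The calls on Lck, Ms4a1, S100a8, S100a9, Batf3 and Flt1 were not made by edgeR, and each was lost without Control replicate 1 and without Control replicate 2. For nephron segment markers, 2 of 10 rose and 4 fell (1 and 2 with edgeR), and the sums were 108948 to 221497 in Control and 87248 to 128093 in TfR1 knockout libraries. Control replicate 3 had the lowest Control sum, which lay within the knockout range, against 210344 and 221497 in Control replicates 1 and 2. The part of these cell types in the interferon-stimulated genes was not tested.

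**Figure D3:**
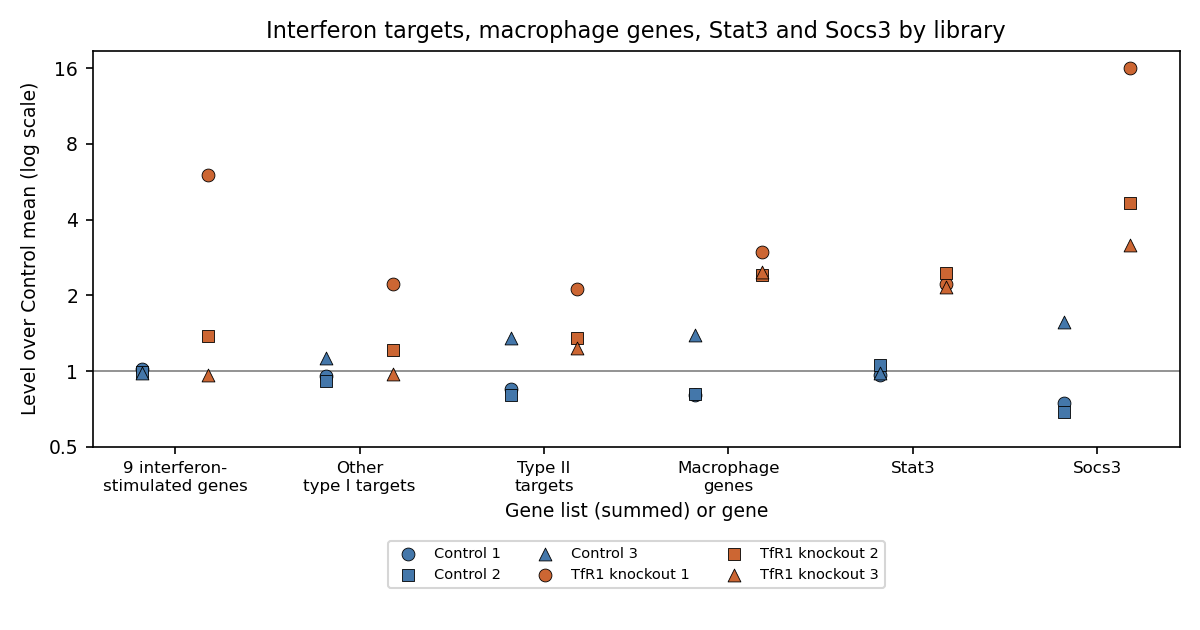
Summed normalized counts of gene lists, or counts of single genes, divided by their mean in Control kidneys (y axis, log scale) for each library. The 9 interferon-stimulated genes, summed, were at 6.00, 1.38 and 0.963 times the Control mean in TfR1 knockout replicates 1 to 3, whereas macrophage genes (2.97, 2.40 and 2.47) and Stat3 (2.23, 2.45 and 2.15) were raised in all 3.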

How the data were processed

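RNA of 6 whole mouse kidneys (3 Control, 3 TfR1 knockout) was sequenced from TruSeq libraries. Per the labels and the study's methods, the authors used CASAVA 1.8.2, trimmed reads with Trimmomatic, aligned them to mm9 with TopHat2 2.0.11 and counted them with HTSeq. The deposited counts are whole numbers of reads per gene symbol, not normalized, with 1 column per kidney. The study's methods state that only uniquely mapped reads were analysed, which can leave out reads shared by near-identical copies; the effect on Ifit3 was not measured. Every deposited count column was used, and the totals of 16591156 to 22898008 counts leave little counting error for most members. Isg15 and Ifit1 had raw counts as low as 36 and 47 in a library, where counting error is larger. The 3 libraries per group also limit the precision.

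Counts were fitted without covariates in DESeq2 1.42.0 (R 4.3.3; Wald test, median-ratio size factors, Benjamini-Hochberg adjustment, independent filtering tuned at 0.05). Of 19985 genes with a read, 16509 were tested (lowest mean count 3.51), and 29 had no p as outliers. All adjusted p-values are from this fit unless edgeR 4.0.16 (quasi-likelihood, TMM) or limma 3.58.1 (voom) is named. Alternatives changed the size factors, the low-count filter and the outlier filter, blocked on replicate number, or dropped 1 library at a time. Gene positions are those of GENCODE on mm9, the build of the alignment, and promoter windows came from RefSeq on GRCm38.p6. The members and lists were chosen with earlier results of these data known. The genes named were the members, Tfrc, up to 3 genes per list with the smallest adjusted p past the threshold, a few genes that define a list, and the 5 most alike in pattern; Cdh16, Ifnz and others in counts of 5 or fewer were named after their values were seen. Some genes of the lists are not reported here.

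Code was tested on simulated data for this comparison, with 200 of 19985 genes changed: DESeq2 recovered 95% of 4-fold and 61% of 2-fold changes with 27.1% of 214 calls false, edgeR 89% and 38% with 6.62% of 136 false, and limma-voom 86% and 37% with 5.38% of 130 false.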

Additional observations from a re-analysis of the deposited data

How the results depend on the processing

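Of the 2 members higher past the threshold, 0 passed with edgeR and 0 with limma-voom, 1 with total-count size factors (Irf9 had an adjusted p of 0.0549) and 1 with the replicate block (Irf9 kept, Irf7 lost at an adjusted p of 0.157). Leaving out single libraries gave between 0 (TfR1 knockout replicate 1 or any Control library) and 7 members (TfR1 knockout replicate 3). All genes higher and lower numbered 1277 and 1186, against 493 and 428 with edgeR, 485 and 456 with limma-voom, and 664 to 1531 and 575 to 1674 with single libraries left out. The sign reversed without TfR1 knockout replicate 1 for Isg15 (-0.15; from -0.15 to 2.99 over the libraries left out) and Ifit3 (-0.90; from -0.90 to 1.40). The cause of these changes was not tested. Total-count size factors gave 996 genes higher and 1407 lower and moved the median of all genes by -0.10 (log2). Of 133 results of single members under the alternatives, 112 were labelled unchanged, 14 lost the call, 5 gained it and 2 reversed. All 14 losses were of Irf7 or Irf9, the only members with a call to lose. For the other members an unchanged result meant that they again did not pass. With the longest transcript as the length, 3 members changed place in the order of levels. Replicate numbers gave no sign of pairing: deviations of same-numbered libraries correlated at -0.042, -0.010 and 0.082 across 13153 genes. The study describes its controls as wild type littermates, and a pairing by litter that does not follow these numbers was not fitted. Control replicate 3 was the only library that correlated best with its own number. Depth limited the ligand genes, which had at most 5 counts in any library.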
